A study of Homo sapiens with 38 samples.

Results

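The 76 histone genes described here are those whose older symbols run from HIST1H to HIST4H, with the rows marked PS (pseudogenes) left out. They are 76 of 50652 genes in the BE2C tables and 76 of 50778 in the palbociclib tables. By class, 6 encode linker histone H1, 17 encode H2A, 23 encode H2B, 15 encode H3 and 15 encode H4. By cluster, read from the symbol, 55 belong to HIST1, 16 to HIST2, 4 to HIST3 and 1 to HIST4. RefSeq lists 70 as protein coding and 6 as pseudogenes of some kind (HIST2H2BA, HIST2H2BB, HIST2H2BC, HIST2H2BD, HIST2H3DP1 and HIST3H2BA), which the symbol rule keeps. For 72 of the 76 the annotation used here (GENCODE v44 on GRCh37) gave coordinates, on chromosomes 6, 1 and 12.

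Replication-dependent histones supply the octamer cores (H2A, H2B, H3 and H4) and linkers (H1) that package DNA as it is copied. Their genes lie in clusters, lack introns and are transcribed mainly in S phase, and most of their messenger RNA ends in a short stem-loop in place of a poly(A) tail. A subset of these genes also makes polyadenylated RNA from a downstream site, and separate replacement histone genes are expressed outside S phase.

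RNA-seq of 3 experiments was used, and the counts of 38 deposited samples gave 27 libraries. BE2C, a human neuroblastoma cell line, was given GSK-J4, an inhibitor of KDM6 histone H3K27 demethylases, at 2.5 µM for 0, 24 or 48 h, with 2 libraries at each time and no untreated library at 24 or 48 h. BE2C was also transfected for 72 h with a control siRNA (siCtrl, 2 libraries) or with siRNAs to KDM6B named N1, N2 and N33 (1 library each, 3 in all), taken as 1 group. The neuroblastoma lines CHLA15 and CHLA20 (300 nM) and NB1643 and NB1691 (3 µM) were given palbociclib, an inhibitor of CDK4 and CDK6, for 72 h, or left without it. Each group had 2 libraries, and the labels give no time for those without the drug. The sources do not say whether libraries of a group came from separate cultures, so p-values measure the spread between these libraries only. The labels' extraction text names xenograft tissue although every sample is labelled as a cell line.

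Depth ranged from 36186567 to 63433818 counts on genes in the GSK-J4 libraries, from 41227956 to 50776662 in the siRNA libraries and from 45457371 to 93011010 in the palbociclib libraries, so that 3 counts stood for at most 0.0829 CPM (counts scaled to library size). The sympathoadrenal marker HAND2 was at 90.5 to 895 CPM across the libraries. The NB1691 libraries stood apart in some markers of other cells. COL1A1, a fibroblast collagen, was at 14558 to 19850 CPM there and at most 106 CPM elsewhere. LUM was at 1743 to 2130 CPM there and at most 109 CPM elsewhere, and KRT5 was at 67.3 to 86.8 CPM in NB1691. DCN, also a fibroblast marker, was at only 2.13 to 3.05 CPM in NB1691. It was at 75.1 to 117 CPM in the CHLA lines and 38.7 to 93.7 CPM in the siRNA libraries. PTPRC and CD3E were under 1 CPM in every library. The part of these in the NB1691 results was not tested. The siRNA target KDM6B stood at 6.47 and 8.76 CPM in the siCtrl pair, while N1 gave 8.99, N2 gave 7.11 and N33 gave 8.26 CPM, so the targeted RNA was not lower in the libraries labelled siKDM6B.

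The sequences below are those that set these RNAs apart from other messages. A stem of 6 paired bases beginning GG around a loop of 4 bases beginning TTT was looked for in the first 100 bases after the stop codon of GENCODE transcripts on GRCh37. It was found in 62 of the 67 members that could be searched (92.5%) and in 3 of 19209 other protein-coding genes. All 6 H1 genes, 15 of 17 H2A, 15 of 16 H2B, 13 of 14 H3 and 13 of 14 H4 genes had it. The 5 without a match were HIST1H2AG, HIST1H2AK, HIST1H2BI, HIST1H3E and HIST1H4L, which says only that these letters were not in this window. Just 5 versions of the 16 bases occurred, printed 5′ to 3′ as DNA with the loop in capitals and 1 gene for each.
Shared by 39 genes, here HIST1H1B, chr6:27834575-27834590, minus strand: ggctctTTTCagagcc
Shared by 9 genes, here HIST1H4E, chr6:26205229-26205244, plus strand: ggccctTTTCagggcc
Shared by 9 genes, here HIST1H2BK, chr6:27114145-27114160, minus strand: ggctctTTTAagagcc
Shared by 4 genes, here HIST1H4I, chr6:27107433-27107448, plus strand: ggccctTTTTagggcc
In 1 gene, HIST2H2AC, chr1:149858941-149858956, plus strand: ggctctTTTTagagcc
The 13 H4 genes with a stem-loop carried the ggccct stem and no gene of another class did. Members that also have a long transcript or gene span (at least 1000 bases) held a stem-loop in 17 of 18 cases, and the rest in 45 of 49.

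Promoters (RefSeq, GRCh38.p14, 250 bases before to 50 after the start) were matched for 65 members and searched on both strands for 4 motifs. The octamer ATTTGCAT, bound by POU factors such as OCT1, was in 14 of 18 H2B and 11 of 16 H2A promoters, in 1 of 12 H3 and in 0 of 6 H1 and 0 of 13 H4 promoters, against 1.80% of all 27305 promoters. AAACACA was in 6 of 6 H1 promoters and in 5.76% of all. CCAAT was in all H1, H2A, H2B and H3 promoters and in 3 of 13 H4 promoters, against 35.7% of all, and TATAAA was in 66.2% of members' promoters against 11.95% of all. Because 12 H2A–H2B pairs stand head to head with start sites at most 289 bases apart, an octamer is often in both partners' windows. The 250 bases before the start of 3 genes are given with these motifs in capitals. They are 2 H2B genes whose values part from those of their H2A partners below, and the member with the most counts in BE2C at 0 h. In the second a TATAAA match on each strand overlaps. The same stretch of HIST1H4E, the highest member per kilobase in BE2C at 0 h, held none of the 4 motifs.
HIST2H2BE, whose partner is HIST2H2AC, chr1:149886683-149886932, minus strand, GRCh38.p14: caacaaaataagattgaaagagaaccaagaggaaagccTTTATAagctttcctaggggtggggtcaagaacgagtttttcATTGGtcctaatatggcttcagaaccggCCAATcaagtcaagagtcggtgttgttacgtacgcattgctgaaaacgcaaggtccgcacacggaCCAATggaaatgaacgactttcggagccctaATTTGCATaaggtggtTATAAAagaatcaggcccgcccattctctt
HIST1H2BK, whose partner is HIST1H2AH, chr6:27146859-27147108, minus strand, GRCh38.p14: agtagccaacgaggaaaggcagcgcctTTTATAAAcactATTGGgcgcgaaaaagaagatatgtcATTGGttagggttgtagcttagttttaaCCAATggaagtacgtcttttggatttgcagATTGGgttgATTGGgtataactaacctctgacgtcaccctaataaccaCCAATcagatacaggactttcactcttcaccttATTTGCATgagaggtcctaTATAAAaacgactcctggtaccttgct
HIST1H1B, chr6:27867589-27867838, minus strand, GRCh38.p14: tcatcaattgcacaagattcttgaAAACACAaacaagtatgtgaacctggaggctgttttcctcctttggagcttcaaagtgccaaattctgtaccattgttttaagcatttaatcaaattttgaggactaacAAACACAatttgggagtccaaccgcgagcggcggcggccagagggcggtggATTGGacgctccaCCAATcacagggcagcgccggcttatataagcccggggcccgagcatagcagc

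How much histone RNA was counted differed between the experiments far more than within them. Members took 0.345% to 1.41% of gene counts in the GSK-J4 libraries and 0.237% to 1.10% in the siRNA libraries of BE2C, and 0.00568% to 0.0302% in the palbociclib libraries of the other 4 lines. Among 57 members above 3 counts in both, the level in BE2C at 0 h was a median 181-fold that in the 4 untreated lines. The 10 replacement histone genes, whose messages are mostly polyadenylated, had a median ratio of 0.916 (0.249 to 1.54). Line and experiment changed together here, and the RNA selection is not given in the sources used here. Line, experiment and any difference in library preparation therefore cannot be told apart. This gap and the sharing of counts among members are described next, and after that levels of members are compared only within an experiment.

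The gap was uneven among members. The 36 protein-coding members above the floor with no long transcript or span were a median 707-fold higher in BE2C, from 25.7 to 4155, and the 15 with one were a median 51.2-fold higher, from 2.66 to 372. The 6 pseudogene records had a median ratio of 1.36, from 0.420 to 25.3, the highest being HIST3H2BA. HIST3H2A stood at 51.1 and 50.1 CPM in BE2C at 0 h and between 3.55 and 35.0 CPM in the untreated lines. By contrast HIST1H1B, the highest member in BE2C at 0 h with 881 CPM in both libraries, was at most 0.665 CPM in any untreated library of the other lines.

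**Figure D1:**
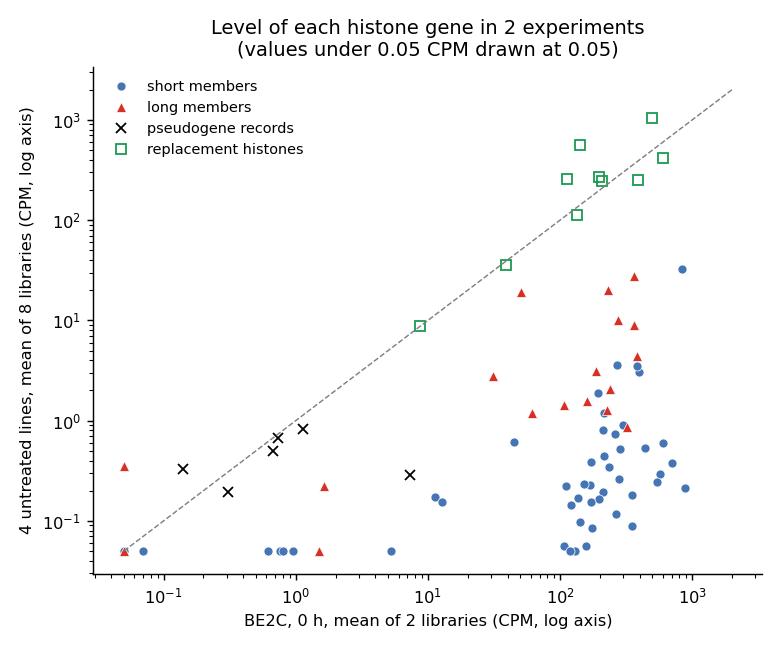
Mean level of each member and of 10 replacement histones in BE2C at 0 h (x axis, 2 libraries) against the 4 untreated lines (y axis, 8 libraries), both in CPM on log axes, with the dashed line marking equal levels. Short members lie a median 707-fold below that line, long members (triangles) a median 51.2-fold, and the replacement histones (squares) lie along it.

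In BE2C many members shared the signal. The 5 highest members held 25.2% to 25.5% of member counts at 0 h, while 50.6% to 76.6% came from 5 members in each palbociclib library. Per kilobase of transcript, HIST1H4E (1423 and 1477 CPM per kb), HIST1H3B (mean 1373) and HIST1H4C (1312 and 1366) were highest at 0 h, and the class medians ran from 240 for H2A through 288 for H3, 336 for H4 and 374 for H2B to 646 for H1. In the untreated palbociclib lines the leading members were HIST1H1C, HIST1H2BK, HIST1H2AC, HIST3H2A, HIST2H2BE, HIST1H2BD and HIST1H2BH, which between them filled the first 5 places in every untreated library. A few members were near 0 everywhere: HIST1H1A, HIST1H2AA, HIST1H2BA, HIST3H3, HIST1H2AD and HIST1H2AM never exceeded 4 counts in a library. HIST1H3D had 0 counts in all 11 BE2C libraries and 4 to 42 counts in each palbociclib library, and the tables of these experiments hold different gene sets. The copies HIST2H2AA3 and HIST2H2AA4, HIST2H3A and HIST2H3C, and HIST2H4A and HIST2H4B are nearly identical, lay at 0.478 to 1.74 CPM in BE2C at 0 h, and are uncertain because the counting could split or drop reads that match both copies.

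All 5 classes were lower with GSK-J4, and lower again at 48 h than at 24 h. H1 summed to 2711 to 2746 CPM at 0 h, 1228 to 1266 at 24 h and 439 to 455 at 48 h. H2A went from 2263 to 2350 CPM at 0 h through 1324 to 1389 to 683 to 709. H2B went from 3877 to 4044 CPM through 1954 to 2050 to 893 to 937. H3 started at 2290 to 2347 CPM and ended at 493 to 509, and H4 started at 2775 to 2844 and ended at 919 to 964. The times did not overlap in any class. Over 48 h the sum fell 6.11-fold for H1, 4.63-fold for H3, 4.33-fold for H2B, 3.31-fold for H2A and 2.99-fold for H4. With 2 libraries a side an exact permutation test of a sum could not pass 0.05, so these sums carry no test. Fewer cells in S phase and less histone RNA per cell cannot be told apart in bulk samples. With no untreated library at 24 or 48 h, GSK-J4 and time in culture cannot be told apart either, here or gene by gene.

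Gene by gene, 58 of 67 members tested were lower at 24 h (edgeR, adjusted p under 0.05) against 28% of all genes, and 0 were higher against 27.3% of all genes. At 48 h 62 of 67 were lower against 34.4% and 0 were higher against 37.1%. Neither DESeq2 nor limma-voom nor an unadjusted p under 0.05 found a member higher at either time. The tested members had a median of -0.86 on the log2 scale after 24 h and -2.02 after 48 h, beside 0.01 and 0.05 for all genes tested. Of the HIST1 members 47 of 47 passed as lower at 48 h, of HIST2 11 of 16, of HIST3 3 of 3, and HIST4H4 passed. The 5 members that did not pass were the HIST2 pseudogene records, whose means at 0 h ran from 0.140 to 1.14 CPM.

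H1 genes fell steeply. HIST1H1B, a somatic linker histone, went from 881 and 881 CPM through 402 and 388 to 117 and 116 CPM. Its log2 fold change at 48 h was -2.91 ± 0.03 (SE from the edgeR fit, n = 2 a group, adjusted p = 1.7e-49). HIST1H1D, another somatic linker histone, went from 432 and 440 CPM to 113 and 110 and then 38.1 and 36.0 CPM. HIST1H1C, also a somatic linker histone, went from 824 and 840 CPM to 164 and 156 CPM, and HIST1H1E from 569 and 580 to 135 and 129 CPM. HIST1H1T, the testis linker histone, was low at 5.35 and 5.21 CPM and passed only at 48 h (-2.45 ± 0.16), since it was still at 4.45 and 4.21 CPM at 24 h. H1 made up 19.3% of member counts at 0 h, 16.3% at 24 h and 12.8% at 48 h.

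Core histones fell by different amounts within each class. The largest fall was that of HIST1H3J, from 149 and 152 CPM at 0 h to 36.4 and 38.9 at 24 h and 11.5 and 11.0 at 48 h, a log2 fold change of -3.74 ± 0.05 (adjusted p = 2.3e-46). Its gene model overlaps HIST1H2AM, to which 0 to 2 counts were given. HIST1H2BI fell by 3.53 on the log2 scale, HIST1H2BM by 3.24 and HIST1H4I by 3.06. Most of the fall of HIST2H2BF came by 24 h, from 221 and 232 CPM to 54.2 and 57.8, with 32.8 and 30.0 CPM at 48 h. HIST1H4C did the opposite and lost little by 24 h, going from 531 and 553 CPM to 449 and 444 and then to 241 and 230 CPM. The most abundant H3 gene, HIST1H3B, went from 695 and 708 CPM through 501 and 535 to 212 and 202 CPM.

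Among called members of at least 1 CPM, the 5 that fell least (HIST3H2A, HIST1H3E, HIST1H2AC, HIST2H4A and HIST4H4) each have an annotated transcript of at least 1000 bases. HIST3H2A was at 51.1 and 50.1 CPM at 0 h, 36.3 and 38.8 at 24 h and 41.4 and 39.9 at 48 h, and it was higher at 48 h than at 24 h (0.12 ± 0.05, adjusted p = 0.027 by edgeR). HIST1H3E went from 30.9 and 31.7 CPM to 19.7 and 22.4 CPM, HIST1H2AC from 229 and 236 to 144 and 146 CPM, and HIST4H4 from 59.5 and 62.9 to 30.4 and 29.8 CPM. The median log2 fold change at 48 h was -1.67 for the 13 tested members with an annotated transcript of at least 1000 bases and -2.16 for the 51 without. Between 24 and 48 h 58 of 67 members were lower against 28% of all genes and 2 were higher against 25.9%, and those were HIST3H2A and the pseudogene record HIST2H2BB, which stayed at or under 0.628 CPM (DESeq2 called 0 higher and limma-voom 1).

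**Figure D2:**
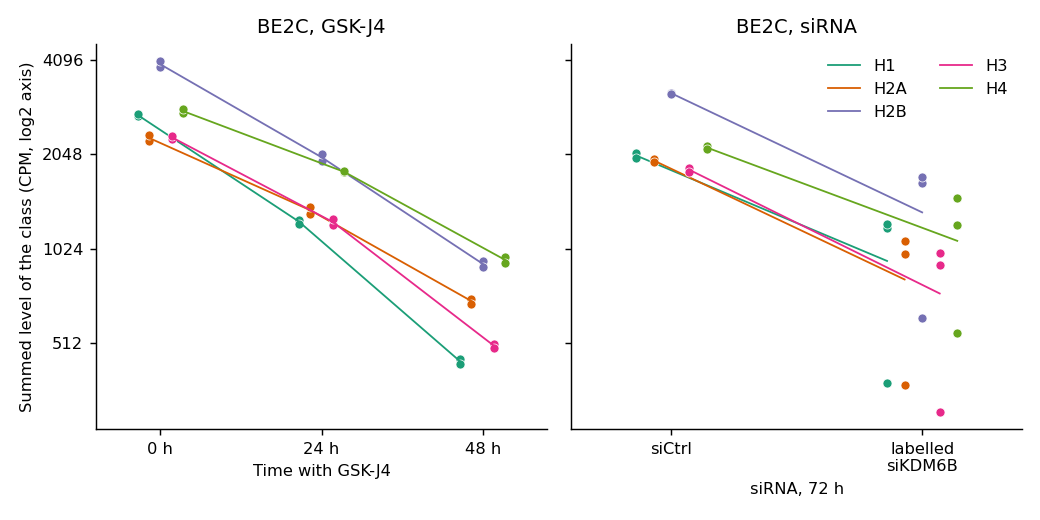
Summed level of each histone class in CPM (log2 axis) in every BE2C library (points, with lines through group means) by time with GSK-J4 (left) and by siRNA (right, 72 h). Every class steps down from 0 h to 24 h to 48 h without overlap, H1 from 2728 to 447 CPM, and the lowest point of each class on the right is the N33 library.

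The 3 libraries labelled siKDM6B held less histone RNA than both siCtrl libraries, but by unlike amounts. All members together summed to 11276 and 11046 CPM in the siCtrl pair. The N1 sum of 5963 CPM was 1.87-fold below the siCtrl mean, the N2 sum of 6522 CPM 1.71-fold and the N33 sum of 2232 CPM 5.0-fold. For H2B the siCtrl sums were 3217 and 3184 CPM, and those of N1, N2 and N33 were 1656, 1734 and 616 CPM. H4 was lower by 0.82, 0.54 and 1.97 on the log2 scale in turn and H3 by 1.01, 0.88 and 2.57. The share of H1 was close in both groups, 18.2% and 18.7% of member counts.

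No member passed the test across these libraries (edgeR, adjusted p under 0.05, 0 of 67), where 0% of all genes passed. At an unadjusted p under 0.05, 37 of 67 members were lower against 4.51% of all genes, and 60 of 67 were lower in all 3 libraries than in both siCtrl libraries against 16.8%. DESeq2 called 4 members lower and limma-voom called 0. The median log2 fold change was -1.24 (0.04 for all genes tested), and it was -0.88 without N33. HIST1H1B measured 680 and 665 CPM in the control pair and, in the order N1, N2, N33, 315, 322 and 87.9 CPM. HIST1H4E was at 433 and 438 against 338, 375 and 197 CPM. HIST1H2AC was at 224 and 214 CPM against 130, 144 and 94.2 CPM, whereas HIST1H3E, at 39.2 and 39.2 against 25.9, 38.6 and 34.2 CPM, came close to overlap.

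Palbociclib went with lower histone RNA in CHLA15 and CHLA20 and higher summed histone RNA in NB1643 and NB1691. In CHLA15 all members summed to 129 and 142 CPM without and 77.7 and 84.2 CPM with the drug, and in CHLA20 to 232 and 283 without and 98.1 and 102 CPM with it. NB1643 went from 182 and 202 to 271 and 263 CPM, and NB1691 from 72.1 and 69.9 to 117 and 110 CPM. The summed groups did not overlap in any line. The sums rest on a few abundant members and part from the medians of the tested members: the median log2 fold change was -0.07 in NB1643 and 0.02 in NB1691 (0.01 with members at 0 set to their bound), and for H1 in CHLA15 it was 0.47 although the H1 sum fell. H3 had a median of -0.38 in both NB lines (-0.11 in NB1691 with bounds) beside sums that were higher. Dose differed with the line, 300 nM in the CHLA lines and 3 µM in the NB lines, so line and dose cannot be told apart.

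**Figure D3:**
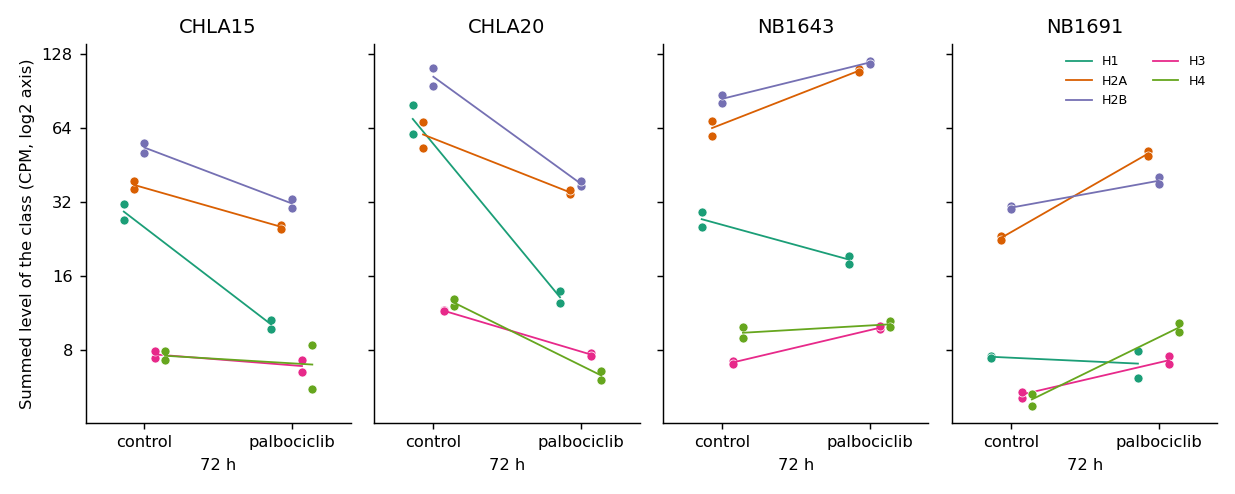
Summed level of each histone class in CPM (log2 axis) in every library of 4 neuroblastoma lines (points, with lines through group means), without and with palbociclib for 72 h. H2A and H2B slope down in CHLA15 and CHLA20 and up in NB1643 and NB1691, and H1 slopes down steeply in the CHLA lines.

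Among the tested members, 1 of 58 was higher and 8 lower in CHLA15 (edgeR, adjusted p under 0.05), against 14.2% and 15.6% of all genes. The lower share of members was 13.8% and the higher share 1.72%, neither above that of all genes. In CHLA20 0 were higher and 30 lower, against 13.7% and 15.9%, with a median log2 fold change of -0.85, and DESeq2, limma-voom and an unadjusted p under 0.05 likewise gave 0 higher. In NB1643 7 were higher and 13 lower, against 20.3% and 19.7%, and in NB1691 9 were higher and 4 lower, against 17.4% and 15.5%. Leaving out CHLA15 control replicate 2 left 5 calls in CHLA15, and leaving out CHLA20 palbociclib replicate 1 left 19 in CHLA20. The effect differed between the lines for 28 of 58 members, against 38% of all genes (test of the line by palbociclib term).

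The calls in the NB lines were also counted by transcript length. With an annotated transcript of at least 1000 bases as the measure, 7 of 12 long members were higher in NB1691 and 0 lower, while 2 of the 43 others were higher and 4 lower. In NB1643 4 of 12 were higher and 0 lower, against 2 higher and 13 lower of 43. Counting also members with a long RefSeq span, a measure chosen after the values were seen, 9 of 19 were higher in NB1691 and 5 of 19 in NB1643, with 0 lower. The difference between the kinds was not tested. In CHLA20 members of both kinds were lower, 6 of 12 and 22 of 43 by the annotated transcript. Short members are scarce in these libraries, since 37 to 46 of the 76 members had more than 3 counts in an NB1691 library, so falls among them rest on few counts.

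**Figure D4:**
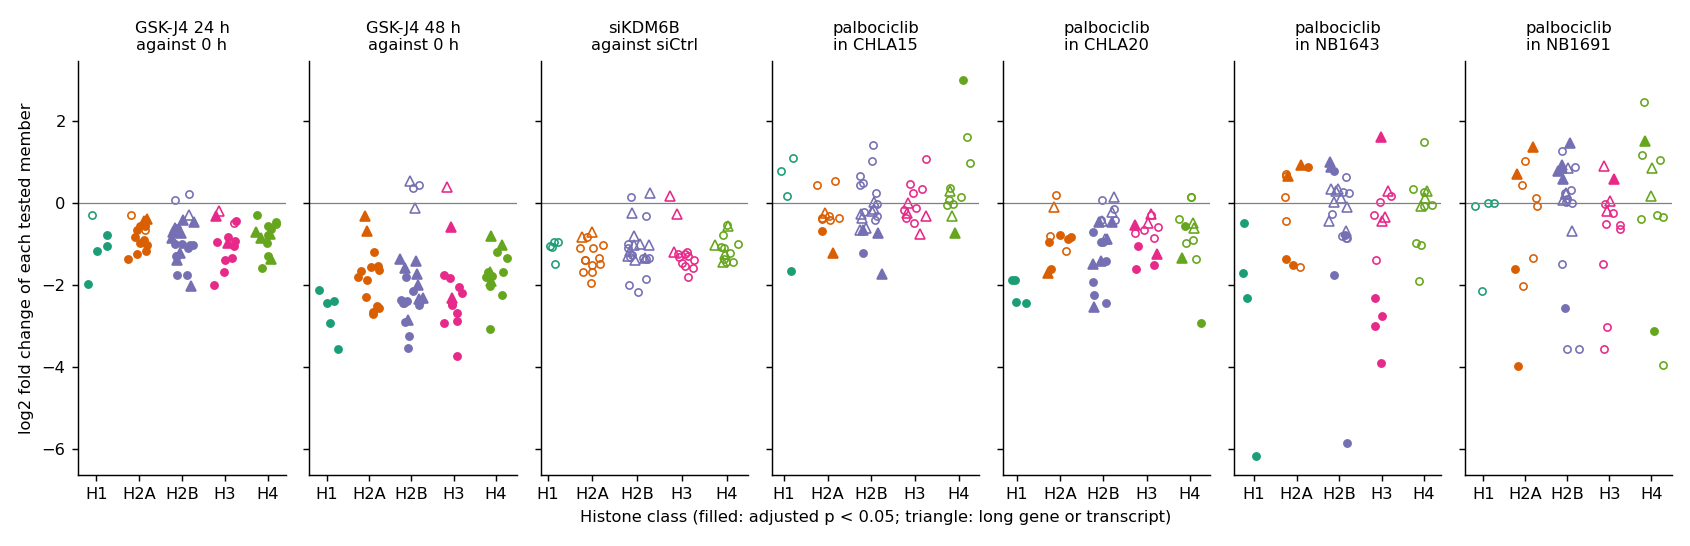
Log2 fold change of each tested member by histone class in 7 comparisons (filled symbols passed at an adjusted p under 0.05, triangles are members with a long transcript or span). In BE2C nearly all members lie below 0, whereas in NB1643 and NB1691 triangles lie mostly above 0 and many circles below it.

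H1 in these lines was mostly HIST1H1C. It went from 26.3 and 31.0 to 8.97 and 9.27 CPM in CHLA15 (-1.65 ± 0.13, adjusted p = 2.8e-08) and from 58.0 and 78.1 to 12 and 13.4 CPM in CHLA20 (-2.42 ± 0.13, adjusted p = 1e-10). In NB1643 it went from 23.8 and 27.1 to 18.9 and 17.5 CPM, and in NB1691 it was at 7.46 and 7.30 without and 7.86 and 6.08 CPM with the drug, where the groups overlapped. The other H1 genes together were at 1.07 to 2.23 CPM in untreated CHLA20 and 0.343 to 0.468 CPM after palbociclib. In NB1643 they went from 1.60 and 1.98 to 0.460 and 0.492 CPM, but in CHLA15 from 0.659 and 0.574 to 0.761 and 1.31 CPM.

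H2A members took opposite directions in different lines. HIST1H2AC, a replication-dependent H2A with a long polyadenylated form, went from 12.9 and 13.6 to 5.70 and 5.80 CPM in CHLA15 and from 24.4 and 32.1 to 8.53 and 8.84 CPM in CHLA20. It went up from 21.4 and 25.7 to 36.7 and 38.2 CPM in NB1643 and from 16.4 and 15.7 to 42.3 and 40.8 CPM in NB1691 (1.38 ± 0.10, adjusted p = 3.9e-09), where it made up 36.17% and 36.97% of all member counts after the drug. HIST3H2A rose from 31.0 and 35.0 to 65.4 and 60.8 CPM in NB1643 and from 3.55 and 3.73 to 6.32 and 5.58 CPM in NB1691, while in the CHLA lines it did not pass (13.6 to 17.9 CPM in CHLA15 and 18.9 to 25.7 CPM in CHLA20, treated or not). HIST1H2AG fell in CHLA15 (2.90 and 3.29 to 1.70 and 2.15 CPM). HIST1H2AH in NB1643 and HIST1H2AJ in NB1691 fell against the median of their class, both from under 0.26 CPM, and HIST2H2AC fell in both NB lines, from 0.409 and 0.403 to 0.199 and 0.102 CPM in NB1643.

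H2B members, too, moved in both directions. HIST1H2BK went from 24.0 and 29.2 to 7.56 and 8.39 CPM in CHLA15, from 52.5 and 70.0 to 10.2 and 11.1 in CHLA20 (-2.52 ± 0.12, adjusted p = 3.2e-11), from 11.6 and 13.2 to 24.9 and 24.5 in NB1643 (1.0 ± 0.12) and from 11.6 and 11.3 to 17.6 and 16.6 CPM in NB1691. HIST2H2BE rose in NB1643 from 18.6 and 20.1 to 35.4 and 35.9 CPM and fell in CHLA20 from 9.69 and 10.8 to 7.21 and 7.70 CPM. HIST1H2BD rose in NB1691, from 4.21 and 4.40 to 7.99 and 7.73 CPM, and was at 19.3 and 21.7 against 21.3 and 20.4 CPM in NB1643. HIST1H2BG rose in NB1643 from 6.67 and 6.79 to 12.1 and 11.2 CPM. HIST1H2BH went against its class in both NB lines, from 2.50 and 2.69 to 0.859 and 0.656 CPM in NB1643 and from 4.64 and 4.11 to 0.746 and 0.723 CPM in NB1691 (-2.57 ± 0.16, adjusted p = 2.8e-10), and in CHLA15 and CHLA20 it did not pass, at 2.91 to 4.39 CPM throughout. HIST1H2BJ fell in CHLA15, CHLA20 and NB1643, most in CHLA20, from 3.71 and 4.43 to 0.936 and 0.764 CPM. HIST1H2BI was at 0 counts in both treated NB1643 libraries and at 3 and 11 in the controls. With 3 counts per library as the floor, it was at least 2.06-fold below the control mean. The control with 3 counts was itself at that floor.

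Called changes of H3 and H4 members also took both directions. HIST1H3E rose from 1.65 and 1.63 to 5.02 and 5.04 CPM in NB1643 (1.61 ± 0.12, adjusted p = 5.4e-09) and from 3.84 and 4.15 to 6.23 and 5.84 CPM in NB1691, while the other H3 calls in NB1643 were 4 members lower. HIST1H3H fell in CHLA20 from 2.84 and 3.12 to 1.93 and 2.15 CPM. HIST1H4H fell from 3.69 and 4.02 to 2.23 and 2.40 CPM in CHLA15 and from 6.31 and 7.19 to 2.79 and 2.56 CPM in CHLA20, and rose from 2.62 and 2.21 to 6.40 and 7.35 CPM in NB1691. HIST1H4C was lower in NB1691, against its class, from 0.0800 and 0.106 CPM to 0.0166 and 0 CPM. The only member higher in CHLA15 was HIST1H4A, named after its values were seen, with 6 and 2 counts in the controls and 6 and 56 with the drug, so that 1 library carried the call. DESeq2 and limma-voom called 0 members higher there. Of the 72 members with coordinates, 26 overlap unnamed gene models in the annotation used here, among them HIST1H3E, HIST1H4H, HIST1H4E, HIST1H2AC, HIST1H2AE, HIST1H2BC, HIST1H2BD, HIST1H2BE, HIST1H2BH, HIST1H2BI, HIST1H1D and HIST1H1E. The strand setting of the counting is not given in the sources used here, so reads of these genes and of the overlapping models cannot be told apart.

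Partners of a head-to-head pair did not always move together. In BE2C both genes of each pair of coding, tested members fell by 48 h, though HIST3H2A fell by 0.31 and its partner HIST3H2BB by 2.32 on the log2 scale, and HIST1H2AC by 0.68 and HIST1H2BC by 2.00. In NB1643 HIST2H2BE rose by 0.89 (adjusted p = 1.7e-08) while HIST2H2AC, 236 bases away, had a log2 fold change of -1.36 (adjusted p = 0.0041). HIST1H2BK rose by 1.0 there and HIST1H2AH, 251 bases away, was at -1.51 (adjusted p = 0.041 by edgeR), from 0.259 and 0.192 to 0.0767 and 0.0820 CPM. HIST2H2BE has an annotated transcript of at least 1000 bases and its partner does not, whereas HIST1H2BK is long by its RefSeq span alone. In NB1691 HIST1H2BC and HIST1H2AC, both long, rose together by 1.49 and 1.38.

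**Figure D5:**
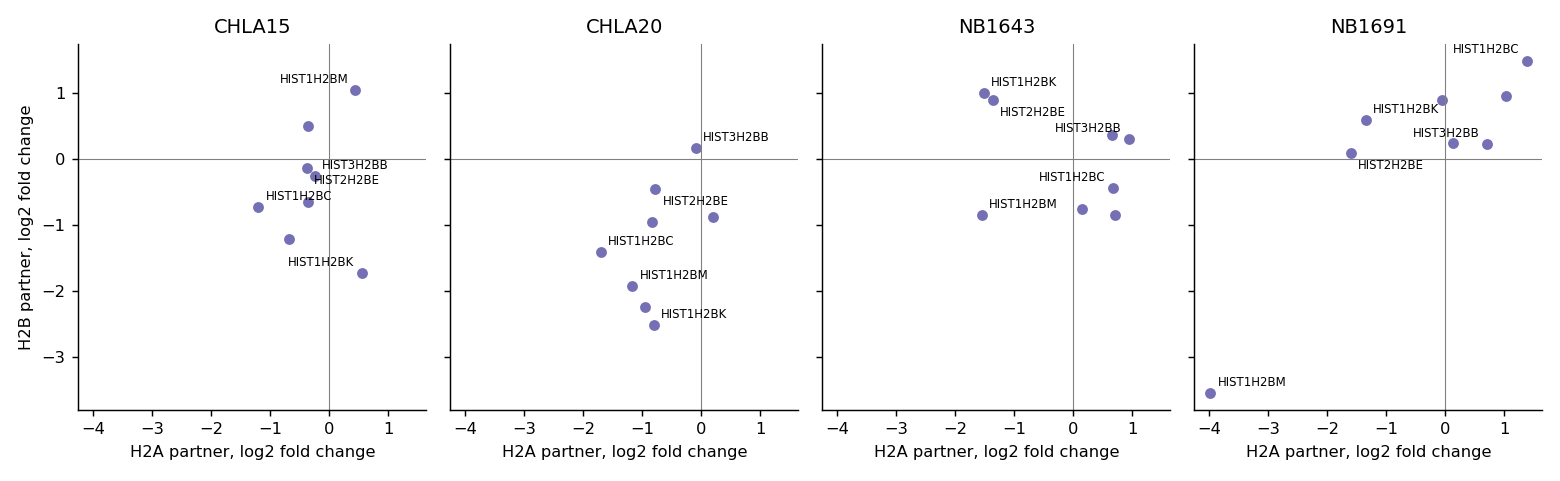
Log2 fold change with palbociclib of the H2B gene (y axis) against the H2A gene (x axis) of each head-to-head pair with both partners tested, in 4 lines. In NB1643 the pairs of HIST2H2BE and HIST1H2BK lie at upper left, with H2B above 0.8 and H2A below -1.3.

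Without drug the 4 lines differed in 56 of 58 members, near the 91.2% of all genes that differed. HIST1H1C was highest in CHLA20, lowest in NB1691, and did not separate CHLA15 from NB1643 (26.3 to 31.0 against 23.8 to 27.1 CPM). HIST2H2BE was highest in NB1643 at 18.6 and 20.1 CPM and at 4.88 to 10.8 CPM elsewhere, with CHLA15 and NB1691 next to each other at 5.64 to 5.81 and 4.88 to 5.22 CPM. HIST3H2A was at 31.0 to 35.0 CPM in NB1643 and 3.55 to 3.73 CPM in NB1691.

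The genes whose products make and process histone RNA were also measured. Of 12 such genes, 8 were lower and 4 higher at 48 h of GSK-J4, against 34.4% and 37.1% of all genes. SLBP, which binds the stem-loop, went from 88.1 and 89.5 to 106 and 109 CPM, and NPAT, the coactivator of histone gene transcription, from 77.9 and 76.0 to 92.3 and 100 CPM, while LSM10 of the U7 snRNP went from 6.51 and 6.61 to 2.39 and 2.39 CPM. With palbociclib 0 were higher and 7 lower in NB1643, against 20.3% and 19.7% of all genes. SLBP went there from 71.3 and 76.9 to 43.1 and 42.2 CPM. In NB1691 1 was higher and 7 lower, against 17.4% and 15.5%, and in CHLA20 0 were higher and 6 lower, against 13.7% and 15.9%. In CHLA15 1 was higher and 1 lower, against 14.2% and 15.6% of all genes. Of 4 genes of S phase, 4 were lower in each of NB1643, NB1691 and CHLA20 and 2 in CHLA15, with 0 higher. Their median log2 fold change was -3.14, -2.37, -0.59 and -0.17 in turn. RRM2, which makes deoxynucleotides, went from 162 and 166 to 6.26 and 6.72 CPM in NB1643 and from 129 and 131 to 8.71 and 7.31 in NB1691. It went from 327 and 365 to 229 and 232 CPM in CHLA20. In BE2C at 24 h of GSK-J4 2 of these 4 genes (PCNA and MCM2) were lower and 1 was higher, against 28% and 27.3% of all genes. The higher 1 was RRM2, at 387 and 397 against 474 and 458 CPM, when 58 of 67 members were lower. All 4 (PCNA, MCM2, RRM2, TYMS) were lower at 48 h, by 0.20 to 0.38 on the log2 scale, beside the members' median fall of 2.02.

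Replacement histones fell in every setting with a call. All 10 were lower at 24 and at 48 h of GSK-J4, against 28% and 34.4% of all genes, with a median of -0.94 on the log2 scale after 48 h. With palbociclib 6 were lower in CHLA15 and 8 in each of the other lines, with 0 higher by edgeR. Of all genes 15.6% were lower in CHLA15, 15.9% in CHLA20, 19.7% in NB1643 and 15.5% in NB1691, and 13.7% to 20.3% were higher. H2AFX, the H2A variant phosphorylated at DNA breaks, went from 90.9 and 72.8 to 18.9 and 15.0 CPM in NB1643. CENPA, the centromeric H3 variant made in G2, went from 33.3 and 37.3 to 1.20 and 0.840 CPM there. H3F3A, which encodes H3.3, was at 248 and 271 without and 286 and 270 CPM with the drug in NB1643, where the groups overlapped.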

How the data were processed

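Deposited counts were used, which the authors made from paired-end reads aligned to human GRCh37 (the labels name STAR 2.5.3a) and counted per gene with htseq-count, as raw read counts with no normalization. RNA selection and strand setting are not given in the sources used here, and the annotation named in the methods carries a mouse release name although the gene symbols are human. BE2C libraries are the sum of 2 deposited files each. Genes were filtered with filterByExpr, scaled by TMM and tested with edgeR 4.0.16 quasi-likelihood (limma 3.58.1, R 4.3.3) with Benjamini-Hochberg adjustment over all genes at 0.05. Each experiment was fitted separately on all its groups. Levels are TMM-scaled CPM, fold changes are on the log2 scale, and DESeq2 1.42.0 was an alternative. Standard errors were back-calculated as the absolute log2 fold change over the square root of the edgeR F statistic. They therefore rest on the spread fitted over all libraries of an experiment. The test was also run for each experiment on simulated counts with 200 changed genes and the same spread for all genes. That setting does not show how the test performs where as many genes change as here. Named genes were the 3 most abundant of each class, the 5 largest and 5 smallest called changes at 1 CPM or more in each comparison, and up to 3 called members moving against the median of their class. The members, lists and tests were chosen with earlier results of these data known, and the length measure that includes the RefSeq span and the H1 sum without HIST1H1C were chosen after seeing the values. Promoters came from RefSeq on GRCh38.p14 and stem-loops from GENCODE v44 on GRCh37. Counting floors cover counting error only.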

Additional observations from a re-analysis of the deposited data

Results flagged for a closer look

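The response to palbociclib differed between the 4 lines for 28 of the 58 members tested (edgeR test of the line by palbociclib term, adjusted p under 0.05), which is 48.3% of members against 38% of all genes, and the named ones are given with that adjusted p by edgeR. Among H1 genes it was 3.29e-08 for HIST1H1C, 0.00439 for HIST1H1B, 0.0058 for HIST1H1E and 0.0266 for HIST1H1D. Among H2A genes it was 1.18e-11 for HIST1H2AC, 1.05e-05 for HIST3H2A, 0.00172 for HIST1H2AG and 0.00341 for HIST1H2AE. Among H2B genes it was 7.06e-12 for HIST1H2BK, 5.72e-09 for HIST1H2BH, 1.31e-07 for HIST2H2BE, 1.02e-05 for HIST1H2BD, 1.34e-05 for HIST1H2BG, 0.000254 for HIST1H2BJ, 0.000356 for HIST1H2BN, 0.000928 for HIST2H2BF, 0.0147 for HIST1H2BI and 0.0365 for HIST1H2BE. For H3 it was 3.83e-07 for HIST1H3E, 0.0143 for HIST1H3H and 0.0158 for HIST1H3G, and for H4 it was 4.94e-09 for HIST1H4H and 0.0068 for HIST1H4C. Dose differed with the line.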

How the results depend on the processing

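Members called stayed within 1.5 times the reported count in most settings. For siRNA the 0 calls became 4 with DESeq2, 14 with no filter beyond 1 count and 34 with each deposited file as a sample, all lower, and remained 0 when any library was left out. In CHLA20 the 30 calls became 19 with DESeq2 and 14 when every library needed 10 counts. That filter kept 21 members and left 10 calls in NB1643, 17 for the line by palbociclib term and 21 between untreated lines. Leaving out 1 library gave 56 to 59 calls for GSK-J4 at 24 h, 61 to 62 at 48 h and 57 to 60 between them, 5 to 9 in CHLA15, 19 to 27 in CHLA20, 15 to 21 in NB1643 and 11 to 13 in NB1691. With the replicate block there were 58, 62 and 60 calls in the GSK-J4 comparisons, 9, 29, 20 and 13 in CHLA15, CHLA20, NB1643 and NB1691, 29 for the line by palbociclib term and 56 between untreated lines. Same-numbered libraries did not deviate together (correlations from -0.0628 to 0.0483). This check of expression cannot show whether they were cultured or handled together. No paired fit was made for the siRNA libraries. No named member that passed changed direction in any setting, while over all named members and settings 81 values lost the threshold, 61 gained it and 3427 did neither. Of the checks on class sums, 42 were labelled as moved and 62 as the same. Counting depth limits the short members of the 4 palbociclib lines most.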

Other observations

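Over the 16 palbociclib libraries, with each line's mean taken off, the 5 genes outside the histones whose log2 CPM followed the summed member level most closely were TRIM25 (r = 0.957), PDE1C (0.956), IGSF3 (0.954), CRABP1 (0.947) and PXDC1 (0.945), of 15069 genes compared. These points share their libraries and treatment, so the values are a description.

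Low-level signal of short members varied between libraries of a group. HIST1H1E was at 0.259 and 0.785 CPM in the 2 treated CHLA15 libraries, and HIST1H3B was at 1.13 and 0.351 CPM in the 2 untreated CHLA20 libraries.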
